A study of Caenorhabditis elegans with 8 samples.

Results

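Aminoacyl-tRNA synthetases are the enzymes that load each tRNA with its amino acid, and their mRNAs were followed here in RNA that came down with 2 RNA-binding proteins of the Caenorhabditis elegans oocyte. Genes were chosen by name, as an amino-acid letter followed by "ars-" and a number, which found 34 genes among the 16031 genes of the authors' table. Of these, 33 encode proteins and cars-2 is annotated as a pseudogene. From textbook knowledge and gene names, 17 were grouped as cytosolic enzymes, 12 as mitochondrial enzymes and 4 as genes that serve both compartments.

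A worm cell runs separate protein synthesis in the cytosol and in the mitochondrion. Cytosolic synthetases feed the ribosomes that translate nuclear mRNAs. Mitochondrial synthetases are also encoded in the nucleus, are imported, and feed the ribosomes that make the few respiratory chain subunits encoded by mitochondrial DNA. OMA-1 and LIN-41 bind mRNAs in growing oocytes and control when they are translated, and oocytes store both mRNA and mitochondria for the embryo.

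RNA-seq was run on 8 libraries of young adults, hatched and grown at 25 °C from stocks kept at 15 °C and collected about 48 h after being fed, from animals that all carried fog-1(q253ts), an allele that feminises the germ line at that temperature. The OMA-1 strain was fog-1(q253ts); oma-1(zu405te33) with tnIs17, a transgene in which the oma-1 promoter drives OMA-1 tagged with S, TEV and GFP sequences and which also holds unc-119(+); 2 immunoprecipitates (IPs), 1 lysate depleted of ribosomal RNA and 1 undepleted lysate came from it. The LIN-41 strain was lin-41(tn1541) fog-1(q253ts), with GFP, TEV and S sequences placed in the lin-41 gene itself, and gave the same 4 libraries. IPs were made with a mixture of the antibodies 12A6 and 4C9 and were not depleted. Whole animals were lysed, so the lysates held RNA of the soma as well as the germ line, and an untagged or mock IP was not analysed here. In bulk RNA of this kind, fewer cells of a type and less RNA per cell cannot be told apart.

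Values of single libraries were not analysed here. The authors' deposited table gives FPKM pooled over the OMA-1 IPs, the LIN-41 IPs and the depleted lysates of both strains, and log2 ratios of each IP to those pooled lysates. It has no error and no n for any value. Its adjusted p tests enrichment only, so lower values and the difference between the IPs were tested approximately, with a standard error (SE) implied by those p-values. A gene is called below when its Benjamini-Hochberg adjusted p over all genes was below 0.05. In the authors' deposited table, baseMean, a scaled mean read count over all libraries, ran from 139 to 5865 over the 33 coding members and was 54.3 for cars-2, against a median of 44.4 over all genes. All 34 members were tested in both comparisons. The oocyte markers oma-1, oma-2, lin-41, rme-2 and puf-5 were called higher in both IPs. Of all genes tested, 28.4% were called higher with OMA-1 and 27.2% with LIN-41. Among these markers, oma-1 and lin-41 are the genes of the tagged proteins.

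In the lysates, mRNAs of cytosolic enzymes were more abundant than those of mitochondrial enzymes. The authors' deposited table gave the lysates a median of 21.3 FPKM over the 12 mitochondrial enzymes (range 10.4 to 33.4) and 49.7 FPKM over the 17 cytosolic enzymes (21.5 to 76.2). The highest lysate level of the family belonged to kars-1, the lysyl enzyme, at 117 FPKM in the authors' deposited table, and the lowest coding level to ears-2, the mitochondrial glutamyl enzyme, at 10.4 FPKM. In the IPs the medians no longer stood in that order: those from the authors' deposited table were 48.3 FPKM for mitochondrial and 31.5 FPKM for cytosolic enzymes with OMA-1, and close together with LIN-41, at 28.7 FPKM for mitochondrial and 27.8 FPKM for cytosolic enzymes. Of the summed FPKM of all members, mitochondrial enzymes held 24.0% in the OMA-1 IPs, 33.1% in the LIN-41 IPs and 18.3% in the lysates. FPKM is scaled per gene length, and the pools have different FPKM totals, so a level set across pools rests on the authors' scaling.

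**Figure D1:**
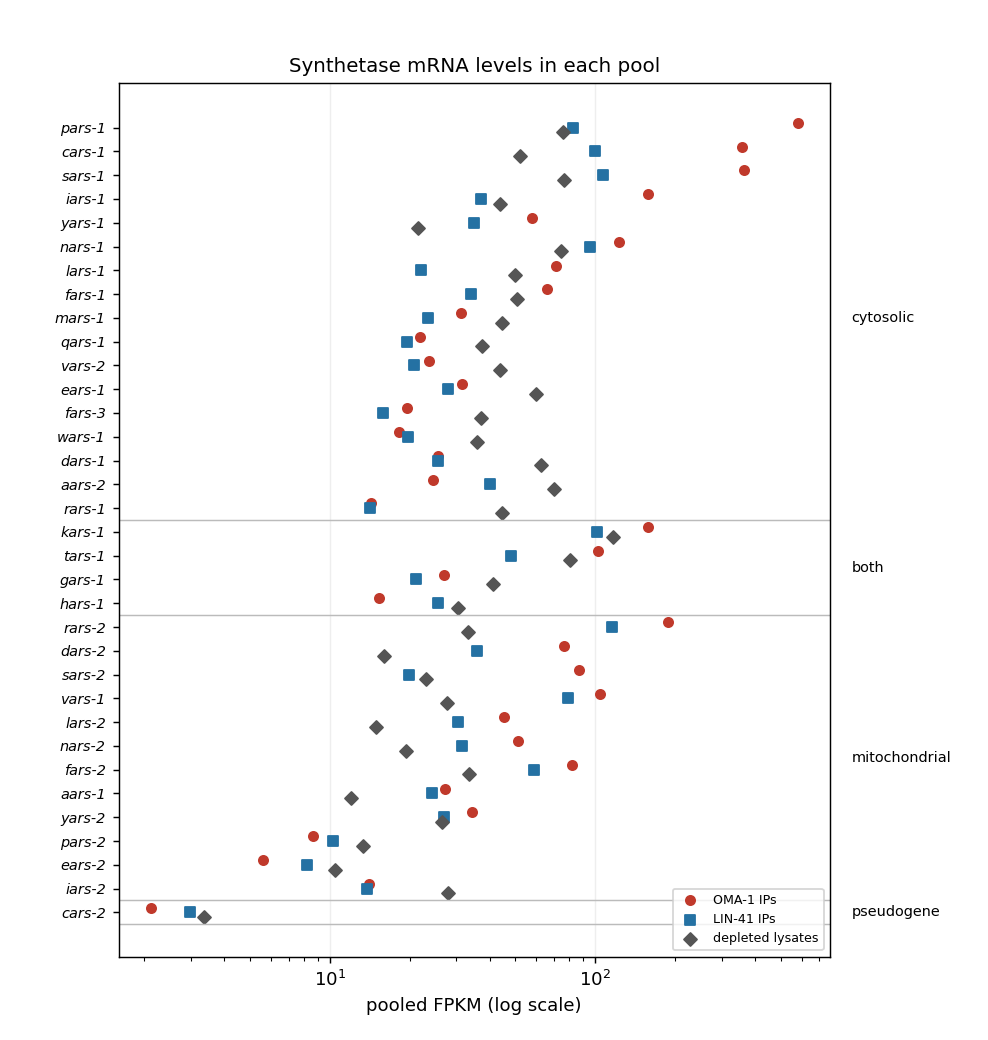
Pooled FPKM of each synthetase gene (rows, grouped by compartment) in the OMA-1 IPs, the LIN-41 IPs and the depleted lysates, on a log axis and with no error bars because the values plotted are pooled. The mitochondrial genes lie between 10.4 and 33.4 FPKM in the lysates, and pars-1 reaches 579 FPKM in the OMA-1 IPs.

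The OMA-1 IPs were compared with the pooled lysates to find synthetase mRNAs enriched or depleted in the IPs. The lysates, unlike the IPs, were depleted of ribosomal RNA. An effect of that step on the ratios cannot be told apart from one of the IP. By the authors' scaling, most mitochondrial enzymes were enriched, and each cytosolic enzyme was called either higher or lower. Members were read deeper than most genes, with a median baseMean of 924 against 44.4, so smaller ratios can be called in them. The shares over all genes given below include many weaker genes. The authors' deposited table called 19 of the 34 members higher with OMA-1, beside 28.4% of 15742 genes tested, and the approximate test called 13 lower, beside 18.7% of the genes tested. By compartment, 9 of 12 mitochondrial enzymes were higher and 2 lower, 8 of 17 cytosolic enzymes were higher and 9 lower, and 2 of the 4 genes of both compartments were higher and 2 lower. The median log2 ratio from the authors' deposited table was 1.34 over the mitochondrial enzymes and -0.51 over the cytosolic enzymes, beside -0.09 over all genes in the table. Which valyl gene serves which compartment is given by no file, and with vars-1 and vars-2 exchanged the cytosolic median was 0.38, while the mitochondrial median was 1.23.

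The position of zero in these ratios rests on the authors' scaling. Setting the 3 FPKM columns to one total without the mitochondrial genome lowers every log2 ratio by a fixed amount, -1.33 for OMA-1 and -0.95 for LIN-41. Under both equal totals and quantile normalization, 8 of the 19 higher calls with OMA-1 were kept, 4 cytosolic and 4 mitochondrial: cars-1, pars-1, sars-1, iars-1, rars-2, dars-2, sars-2 and vars-1. All 13 lower calls were kept. Of the 17 cytosolic enzymes, 5 were higher and 12 lower with OMA-1 under quantile normalization, and 4 were higher and 12 lower with equal totals. Of the 12 mitochondrial enzymes, 8 were higher and 3 lower with OMA-1 under quantile normalization, and 4 were higher and 4 lower with equal totals. With LIN-41, 7 of them were higher and 2 lower under quantile normalization, and 2 were higher and 5 lower with equal totals. The distance between the compartments does not depend on a fixed shift: the mitochondrial median lay 1.85 above the cytosolic median with OMA-1 and 1.61 above it with LIN-41, and 2.17 and 1.88 above it with quantile normalization. The ranges overlapped, from -0.98 to 2.49 for mitochondrial and from -1.63 to 2.92 for cytosolic enzymes with OMA-1.

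**Figure D2:**
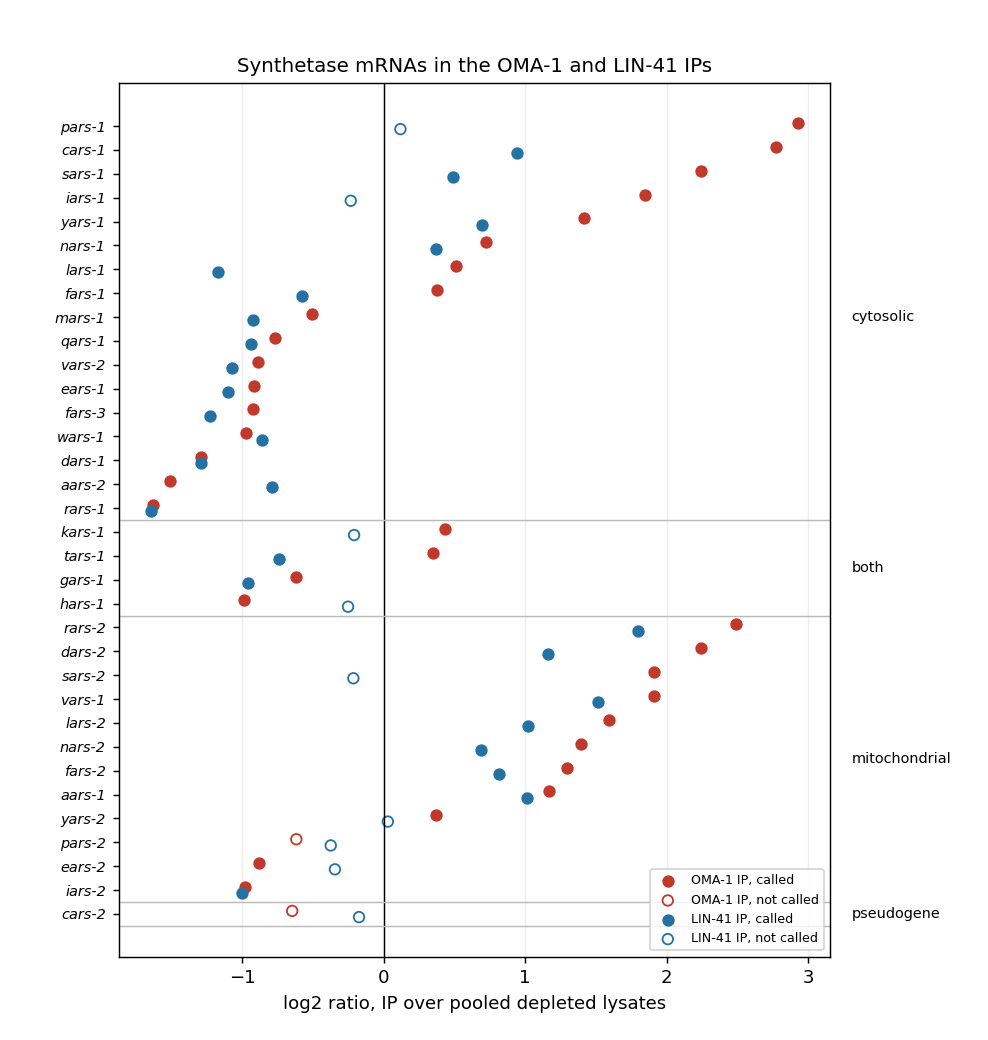
Log2 ratio of each IP to the pooled depleted lysates for each synthetase gene, grouped by compartment and ordered within it by the OMA-1 value; filled points were called higher or lower at an adjusted p below 0.05 and open points were not. With OMA-1 the cytosolic genes run from 2.92 to -1.63, and 9 of the 12 mitochondrial genes were called higher, 4 of them also under equal totals and quantile normalization.

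Among cytosolic enzymes, those for proline, cysteine, serine and isoleucine had the highest ratios with OMA-1. The prolyl enzyme gene pars-1 (WBGene00004189, chromosome III 7239027 to 7241277 in WBcel235) had 579 FPKM in the OMA-1 IPs, against 75.9 FPKM in the lysates, in the authors' deposited table. Its log2 ratio there, by the authors' deposited table, was 2.92, a 7.59-fold enrichment and the highest of the family, with an adjusted p of 4.75e-116. The cysteinyl enzyme gene cars-1 (WBGene00000800, I 2623099 to 2628577) had 358 FPKM with OMA-1, against 52.2 FPKM in the lysates, and the authors' deposited table lists its log2 ratio as 2.77. It is the only coding gene for a cysteinyl enzyme among the members, and whether it also serves the mitochondrion was not tested. Here cars-1 is counted as cytosolic. Without it the cytosolic median with OMA-1 was -0.64, against -0.51 with it.

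The seryl enzyme gene sars-1 (WBGene00005663, IV 10003726 to 10005578) followed, with 362 FPKM in the OMA-1 IPs, 76.2 FPKM in the lysates and, from the authors' deposited table, a log2 ratio of 2.24. For the isoleucyl enzyme gene iars-1 (WBGene00002152, IV 10368601 to 10373136) the authors' deposited table gave 158 FPKM with OMA-1, 43.7 FPKM in the lysates and a log2 ratio of 1.85. These 4 genes made up 48.3% of the summed synthetase FPKM in the OMA-1 IPs, 23.8% in the LIN-41 IPs and 17.6% in the lysates. They are named here because they had the highest OMA-1 ratios of the cytosolic enzymes, so these shares describe that choice.

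The remaining cytosolic enzymes called higher with OMA-1 had smaller ratios in the authors' deposited table: 1.42 for yars-1 (tyrosyl), 0.72 for nars-1 (asparaginyl), 0.51 for lars-1 (leucyl) and 0.38 for fars-1. With equal totals, nars-1, lars-1 and fars-1 turned negative.

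The cytosolic enzymes for arginine, alanine and aspartate were the most depleted. The arginyl enzyme gene rars-1 (WBGene00004679, III 4914088 to 4917177) had 14.3 FPKM in the OMA-1 IPs, against 44.5 FPKM in the lysates, in the authors' deposited table. Its log2 ratio of -1.63 there is a 3.10-fold depletion, called by the approximate test. The alanyl enzyme gene aars-2 (WBGene00000197, I 3983183 to 3986581) had 24.4 FPKM with OMA-1 and 69.8 FPKM in the lysates in the authors' deposited table, a log2 ratio of -1.51. For the aspartyl enzyme gene dars-1 (WBGene00001094, III 9489176 to 9491215) the authors' deposited table gave 25.6 FPKM with OMA-1, 62.7 FPKM in the lysates and a log2 ratio of -1.29.

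Lower calls with smaller ratios from the authors' deposited table went to wars-1 (tryptophanyl, -0.97), fars-3 (-0.92), ears-1 (glutamyl, -0.92), vars-2 (-0.89), qars-1 (glutaminyl, -0.77) and mars-1 (methionyl, -0.51). The gene listed as vars-2 is glp-4, which encodes a valyl enzyme and whose temperature-sensitive mutant lacks most of its germ line. Its mRNA had, by the authors' deposited table, 23.6 FPKM in the OMA-1 IPs, against 43.8 FPKM in the lysates.

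Markers of somatic tissues were read beside these ratios. Among 5 intestine markers, 4 were lower in each IP, and the remaining one, elt-2, was not called in either. Among 5 body wall muscle markers, 3 were lower and 1, the actin gene act-4, was higher with OMA-1, and 5 were lower with LIN-41. Of all genes tested, 18.7% were called lower and 28.4% higher with OMA-1, and 14.0% were called lower with LIN-41. Summed over the intestine markers, the authors' deposited table gave 787 FPKM with OMA-1, 1086 FPKM with LIN-41 and 3566 FPKM in the lysates, which is 0.0782%, 0.143% and 0.904% of the FPKM total of each pool. The muscle sum from the authors' deposited table was 3585 FPKM with OMA-1, of which act-4 held 3151 FPKM, 391 FPKM with LIN-41 and 975 FPKM in the lysates, or 0.356%, 0.0513% and 0.247% of the pool totals. Without act-4, the muscle shares were 0.0431% with OMA-1, 0.0265% with LIN-41 and 0.186% in the lysates. No intestine or muscle marker was at 0 in any pool. The part of somatic RNA in the lower synthetase ratios was not tested.

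By the authors' scaling, mitochondrial enzymes were mostly higher with OMA-1. The mitochondrial arginyl enzyme gene rars-2 (WBGene00004680, II 6125559 to 6127942) led, with 188 FPKM in the OMA-1 IPs, 33.3 FPKM in the lysates and a log2 ratio of 2.49, a 5.62-fold enrichment, by the authors' deposited table. Next was dars-2 (aspartyl; WBGene00001095, V 12048745 to 12052181), for which the authors' deposited table gave 76.5 FPKM with OMA-1, 16.1 FPKM in the lysates and a log2 ratio of 2.25. Then came sars-2 (seryl) and vars-1 (valyl), both at 1.91 in the authors' deposited table, and with smaller ratios lars-2 at 1.59, nars-2 at 1.39, fars-2 at 1.29, aars-1 at 1.17 and yars-2 at 0.37.

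The exceptions were the mitochondrial enzymes for isoleucine, glutamate and proline. The authors' deposited table gave iars-2 (WBGene00002153, I 10180236 to 10184599) 14.1 FPKM with OMA-1, 27.8 FPKM in the lysates and a log2 ratio of -0.98, called lower by the approximate test. The glutamyl enzyme gene ears-2 stood at -0.88 and was also called lower, a call lost when genes with a baseMean under 100 were left out and at an adjusted p below 0.01. For pars-2 the ratio, -0.62 by the authors' deposited table, did not pass, with an adjusted p of 0.083 by the approximate test. Both ears-2 and pars-2 were among the least abundant members, at 5.62 and 8.64 FPKM in the OMA-1 IPs.

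Genes held to serve both compartments were split between higher and lower calls. The lysyl enzyme gene kars-1 and the threonyl enzyme gene tars-1 were called higher with OMA-1, at log2 ratios of 0.43 and 0.35 in the authors' deposited table, and both turned negative under equal totals and under quantile normalization. The glycyl enzyme gene gars-1 (-0.62) and the histidyl enzyme gene hars-1 (-0.99) were called lower. The pseudogene cars-2, at 2.12 FPKM with OMA-1 and 3.35 FPKM in the lysates by the authors' deposited table, was not called; it is the 1 member marked there as affected by multimapping reads, so its values are uncertain.

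The LIN-41 IPs, also not depleted of ribosomal RNA, were set against the same lysates. The deposited test called fewer members enriched, and most of those were mitochondrial enzymes. The authors' deposited table called 11 of 34 members higher with LIN-41, beside 27.2% of 13955 genes tested, and the approximate test called 14 lower, beside 14.0% of the genes tested. Higher calls went to 7 of 12 mitochondrial enzymes, 4 of 17 cytosolic enzymes and none of the 4 genes of both compartments. Lower calls went to 1 mitochondrial enzyme, 11 cytosolic enzymes and 2 genes of both compartments. The median log2 ratio from the authors' deposited table was 0.75 over mitochondrial and -0.86 over cytosolic enzymes, beside -0.05 over all genes.

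The mitochondrial enzymes rars-2 and vars-1 had the highest LIN-41 ratios. By the authors' deposited table, rars-2 had 116 FPKM in the LIN-41 IPs, the highest level of any member there, against 33.3 FPKM in the lysates, and a log2 ratio of 1.79 with an adjusted p of 8.08e-33. The authors' deposited table gave vars-1 (WBGene00006935, V 8031411 to 8035025) 79.2 FPKM with LIN-41, 27.6 FPKM in the lysates and a log2 ratio of 1.52. These 2 were the higher calls kept under both equal totals and quantile normalization, while all 14 lower calls were kept.

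Next in the authors' deposited table were dars-2 at 1.16, lars-2 at 1.02, aars-1 at 1.01, cars-1 at 0.94, fars-2 at 0.81, yars-1 at 0.70, nars-2 at 0.69, sars-1 at 0.49 and nars-1 at 0.37. With equal totals, 6 of these turned negative: cars-1, fars-2, nars-2, sars-1, yars-1 and nars-1.

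The lowest LIN-41 ratios belonged to cytosolic enzymes. For rars-1 the authors' deposited table listed 14.2 FPKM in the LIN-41 IPs, against 44.5 FPKM in the lysates, and a log2 ratio of -1.65. It was followed in the authors' deposited table by dars-1 (-1.29), fars-3 (-1.23), lars-1 (-1.17), ears-1 (-1.10) and vars-2 (-1.07). Then came qars-1 at -0.94, mars-1 at -0.93, wars-1 at -0.86, aars-2 at -0.79 and fars-1 at -0.58. The mitochondrial gene called lower was iars-2, at -1.002, and the genes of both compartments were gars-1 at -0.96 and tars-1 at -0.74. Called neither higher nor lower with LIN-41 were pars-1 (0.12), yars-2 (0.03), cars-2 (-0.17), kars-1 (-0.21), sars-2 (-0.21), iars-1 (-0.23), hars-1 (-0.25), ears-2 (-0.34) and pars-2 (-0.37).

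Whether the IPs differ was asked with the OMA-1 minus LIN-41 difference of the log2 ratios, in which the shared lysates cancel. The IPs came from different strains. A difference in mRNA level between the strains cannot be told apart from one between OMA-1 and LIN-41 binding. Nearly all large differences favoured OMA-1, led by the prolyl, mitochondrial seryl, isoleucyl, cysteinyl, cytosolic seryl and leucyl enzymes. Of 34 members, 15 were higher with OMA-1, beside 19.6% of 13955 genes tested, and 2 were higher with LIN-41, beside 12.4%. The 15 were 7 cytosolic enzymes, 6 mitochondrial enzymes and 2 genes of both compartments. The approximate SE counts the spread of the lysates although it cancels, so it is too wide if the implied SEs hold.

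The prolyl gene pars-1 differed most. The authors' deposited table listed 579 FPKM in the OMA-1 IPs, against 82.4 FPKM in the LIN-41 IPs, where the lysates had 75.9 FPKM. Its difference was 2.81 ± 0.182 (approximate SE), 6.99-fold, with an adjusted p of 2.83e-52 by the approximate test. The mitochondrial seryl gene sars-2 (WBGene00005662, IV 4357636 to 4359947) had 87.2 FPKM with OMA-1, against 19.9 FPKM with LIN-41, in the authors' deposited table, a difference of 2.13 ± 0.204 (approximate SE).

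For iars-1 the authors' deposited table gave 158 FPKM with OMA-1 and 37.2 FPKM with LIN-41, and the difference was 2.08 ± 0.179 (approximate SE). For cars-1 the authors' deposited table gave 358 FPKM with OMA-1 and 100.2 FPKM with LIN-41, and the difference was 1.83. The difference was 1.75 for sars-1 and 1.69 ± 0.179 (approximate SE) for lars-1 (WBGene00003073, III 4181549 to 4186801), which had 71.1 FPKM with OMA-1 and 22.0 FPKM with LIN-41 in the authors' deposited table. Both serine enzymes, cytosolic and mitochondrial, were thus higher with OMA-1 than with LIN-41.

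Smaller differences in favour of OMA-1 were 1.09 for tars-1, 1.09 for dars-2, 0.96 for fars-1, 0.72 for yars-1, 0.71 for nars-2, 0.70 for rars-2, 0.64 for kars-1, 0.58 for lars-2 and 0.48 for fars-2. With equal totals each difference falls by 0.38, and the calls of yars-1, nars-2, rars-2, kars-1, lars-2 and fars-2 were lost under that scaling and under quantile normalization. The other 9 calls were kept under both.

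The histidyl gene hars-1 and the alanyl gene aars-2 were higher with LIN-41. By the authors' deposited table hars-1 (WBGene00002001, IV 10858957 to 10861284) had 15.3 FPKM in the OMA-1 IPs, against 25.6 FPKM in the LIN-41 IPs, and its difference was -0.74 ± 0.278 (approximate SE), which did not pass when genes with a baseMean under 100 were left out (over all genes, the approximate test gave an adjusted p of 0.0268). For aars-2 the authors' deposited table gave 24.4 FPKM with OMA-1, against 40.3 FPKM with LIN-41, with a difference of -0.72 ± 0.215 (approximate SE). With LIN-41, aars-2 was called lower than in the lysates and hars-1 was not called. Both differences were kept under equal totals and under quantile normalization.

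The other 17 members did not pass. Those with the smallest differences were dars-1 (0.0011 ± 0.245), rars-1 (0.012 ± 0.245) and iars-2 (0.023 ± 0.249, approximate SE each). The member nearest to the threshold was vars-1, with a difference of 0.39 and an adjusted p of 0.0588 by the approximate test, and it passed when genes with a baseMean under 100 were left out. Among the rest, mars-1, nars-1, yars-2, gars-1 and fars-3 lay between 0.42 and 0.30. The values for ears-1 and vars-2 were 0.18 each, with 0.17 for qars-1 and 0.15 for aars-1, and wars-1 (-0.11), pars-2 (-0.24), cars-2 (-0.47) and ears-2 (-0.54) were negative.

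**Figure D3:**
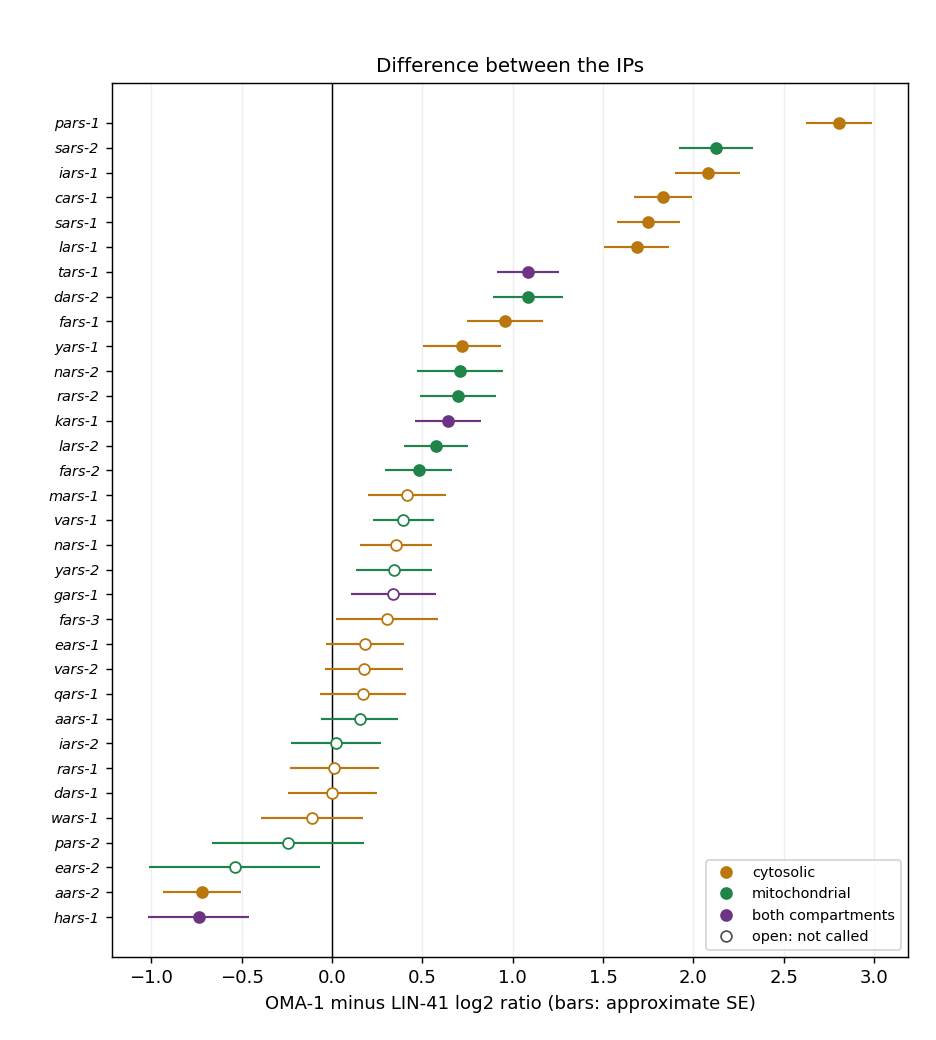
OMA-1 minus LIN-41 difference of the log2 ratios for the 33 coding synthetase genes, coloured by compartment, with bars of 1 approximate SE; filled points passed an adjusted p below 0.05. The prolyl gene pars-1 lies highest at 2.81, and aars-2 and hars-1 are the filled points below 0.

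Enzymes for the same amino acid were then set side by side, since a fixed shift of all ratios cancels between the partners. For 12 amino acids the members hold a mitochondrial and a cytosolic enzyme, which gives 13 pairs because the cytosolic phenylalanyl enzyme has 2 subunit genes. The mitochondrial partner had the higher log2 ratio in 9 of 13 pairs with OMA-1 and in 9 of 13 with LIN-41. The gene fars-2 enters 2 of these pairs. Counted by amino acid, the mitochondrial enzyme was higher for 8 of 12 with each IP. The 2 IPs share the lysates, so these counts are not independent. With quantile normalization the pair counts were 10 and 11, as the seryl pair changed sign with both IPs and the prolyl pair with LIN-41. In the lysates, the authors' deposited table gave the mitochondrial partner the higher FPKM in 1 pair, yars-2 over yars-1.

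With OMA-1, arginine, aspartate, valine and alanine had the widest gaps in favour of the mitochondrial enzyme. From the authors' deposited table, rars-2 exceeded rars-1 by 4.12 on the log2 scale with OMA-1 and by 3.44 with LIN-41. The gap of dars-2 over dars-1 was 3.54 with OMA-1 and 2.45 with LIN-41. For valine, that of vars-1 over vars-2 was 2.80 with OMA-1 and 2.59 with LIN-41. Its sign rests on the compartments given to these 2 genes. Alanine's gap, of aars-1 over aars-2, was 2.68 with OMA-1 and 1.80 with LIN-41. For phenylalanine, the mitochondrial gene fars-2 exceeded the beta subunit gene fars-3 by 2.22 with OMA-1, against 2.04 with LIN-41. It exceeded the alpha subunit gene fars-1 by 0.91 with OMA-1, against 1.39 with LIN-41. The gap of lars-2 over lars-1 was 1.08 with OMA-1 but 2.19 with LIN-41, wider than that of alanine there. Gaps of nars-2 over nars-1 (0.67 with OMA-1, 0.32 with LIN-41) and ears-2 over ears-1 (0.03 with OMA-1, 0.75 with LIN-41) were below 1 in both IPs.

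The order was the other way for proline, isoleucine, tyrosine and serine. From the authors' deposited table, the mitochondrial minus cytosolic value was -3.54 with OMA-1 and -0.49 with LIN-41 for pars-2 and pars-1, and -2.83 and -0.77 for iars-2 and iars-1. For yars-2 and yars-1 it was -1.05 with OMA-1, against -0.67 with LIN-41, again with a sign that rests on the compartments given to the genes. Last, the seryl pair of sars-2 and sars-1 had -0.33 with OMA-1 and -0.71 with LIN-41.

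**Figure D4:**
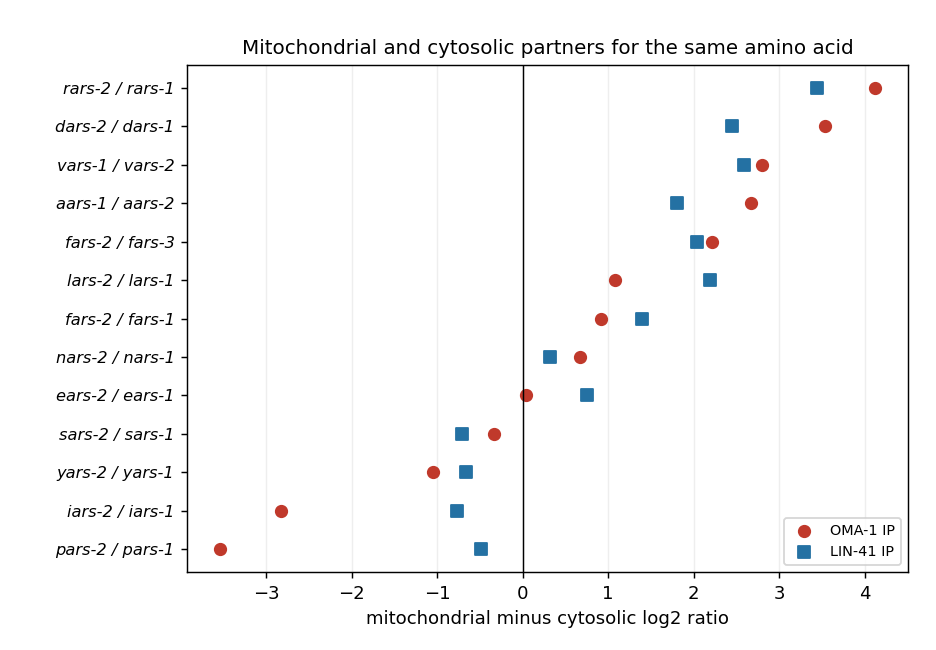
Mitochondrial minus cytosolic log2 ratio for each pair of enzymes that load the same amino acid, with the OMA-1 IP as circles and the LIN-41 IP as squares; no error is drawn because the ratios are pooled values. The pair of rars-2 and rars-1 lies at 4.12 with OMA-1, and the pair of pars-2 and pars-1 at -3.54.

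The cytosolic phenylalanyl enzyme is built from an alpha subunit, encoded by fars-1, and a beta subunit, encoded by fars-3. For the alpha subunit gene fars-1, the authors' deposited table had 66.1 FPKM with OMA-1 and 50.8 FPKM in the lysates, while fars-3 had 19.6 FPKM with OMA-1 and 37.2 FPKM in the lysates. The alpha minus beta value of the log2 ratios was 1.30 with OMA-1 and 0.65 with LIN-41. This gap between the subunits was not tested. With OMA-1, fars-1 was called higher and fars-3 lower, although fars-1 turned negative under both other scalings. With LIN-41 both were lower.

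Synthetases fall into structural classes with unrelated catalytic domains. Of 16 coding class I genes, 8 were higher and 8 lower with OMA-1, and of 17 coding class II genes, 11 were higher and 5 lower. With LIN-41, 5 class I genes were higher and 8 lower, against 6 class II genes higher and 6 lower. Over all genes tested, 28.4% were higher and 18.7% lower with OMA-1, and 27.2% and 14.0% with LIN-41. Among cytosolic enzymes alone, 4 of 10 class I genes were higher and 6 lower with OMA-1, against 4 and 3 of 7 class II genes. A difference between the classes was not tested. In mammals, several cytosolic synthetases are held in a multi-synthetase complex. The 9 worm genes for those amino acids (cytosolic or of both compartments) included pars-1, iars-1, lars-1 and kars-1, higher with OMA-1, and dars-1, ears-1, mars-1, qars-1 and rars-1, lower with OMA-1. Their median log2 ratio was -0.51 with OMA-1 and -0.94 with LIN-41. That of the other 12 was -0.14 with OMA-1 and -0.66 with LIN-41.

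Both proteins are known to act through 3′ UTRs. In the Ensembl annotation of WBcel235 the 33 coding genes had a median 3′ UTR of 160 bases, and the median was 160 bases over the 19 genes higher with OMA-1 and 169 bases over the 13 lower. The longest were those of wars-1 at 747 bases, iars-2 at 667 bases and vars-2 at 398 bases, all called lower in both IPs, although the LIN-41 call of wars-1 was lost when genes with a baseMean under 100 were left out. The shortest was that of yars-2 at 47 bases. Median protein length was 593 residues over the genes higher with OMA-1 and 742 residues over those lower.

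Genes that act next to aminoacylation were counted from a list. Of 17 listed genes, 16 were in the table; 6 were called higher and 7 lower with OMA-1, beside 28.4% and 18.7% of all genes tested, and 4 higher and 8 lower with LIN-41, beside 27.2% and 14.0%. The mitochondrial factors tufm-1 and tufm-2, which carry charged tRNA to the mitochondrial ribosome, had log2 ratios of 1.90 and 3.52 with OMA-1 and of 0.76 and 1.84 with LIN-41 in the authors' deposited table. The mitochondrial factor genes tsfm-1 (1.01 with OMA-1, 0.76 with LIN-41) and gfm-1 (0.67 and 0.72) were also called higher in both. With equal totals, tsfm-1 and gfm-1 turn negative in both IPs and tufm-1 with LIN-41, while tufm-2 stays positive. The cytosolic carrier gene eef-1A.1 had a log2 ratio of -2.66 with OMA-1 and -2.37 with LIN-41 in the authors' deposited table, while its paralog eef-1A.2 (0.06 and -0.15) passed in neither.

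The exchange factor genes eef-1B.1 and eef-1G were lower in both IPs, and eef-1B.2 was lower with OMA-1 (-1.15) and not called with LIN-41 (-0.36). The cytosolic translocase gene eef-2 was called higher with OMA-1 (0.51) and lower with LIN-41 (-1.65), with a difference of 2.16 ± 0.143 (approximate SE); with equal totals its OMA-1 ratio is negative too. Of the genes that sense uncharged tRNA, gcn-1 (-1.55 with OMA-1, -0.86 with LIN-41) and gcn-2 (-1.04 and -0.45) were lower in both, and the transcription factor gene atf-5 was higher with OMA-1 (0.77, negative with equal totals) and lower with LIN-41 (-0.79). By name, 63 mitochondrial ribosomal protein genes were in the table, of which 28 were higher and 14 lower with OMA-1, beside the same 28.4% and 18.7% of all genes, and 18 were higher and 17 lower with LIN-41, beside 27.2% and 14.0%. Their median log2 ratio was 0.23 with OMA-1 and -0.07 with LIN-41.

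Log2 ratios over lysate from an OMA-1 IP made for an earlier study are also listed. The authors' deposited table gave 3.26 for pars-1, 3.17 for cars-1, 2.74 for sars-1, 2.39 for rars-2, -1.77 for rars-1 and -1.81 for aars-2 in that IP, beside 2.92, 2.77, 2.24, 2.49, -1.63 and -1.51 in the present OMA-1 IPs. Its median was 1.57 over the mitochondrial and -0.21 over the cytosolic enzymes. Whether both sets share lysates was not tested, and no measure of their likeness is given.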

How the data were processed

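RNA-seq was made from 2 OMA-1 IPs, 2 LIN-41 IPs and 4 lysates, with TruSeq libraries per the labels' protocols. Trimmomatic 0.32, STAR 2.4.2a, SAMtools 1.0 and DESeq2 1.12.3 were used, per the submitters' processing notes, which also name the build WBcel235 but state no step for any tool. How reads were counted, with which annotation and which strand setting, is not given in the sources used here. As deposited by the authors, the table holds log2 ratios of each IP to the pooled depleted lysates, pooled FPKM values, Benjamini-Hochberg adjusted p-values and baseMean, a signal of scaled mean read counts. Depth per library is unknown. Left unused were 4 columns holding values of other studies.

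Values per library were not analysed, so calls of enrichment are the authors' own. Each deposited adjusted p was converted to a raw one-sided p and a Wald z, and log2 ratio over z gave an implied SE; where none resulted, the SE of the opposite IP was taken, and otherwise the 95th percentile of the 201 genes nearest in baseMean (15 members in each comparison). Over 3133 genes the 2 implied SEs correlated with r = 0.996 on the log scale. A one-sided normal test was used for lower values and a two-sided one for the difference, adjusted over all genes tested by the Benjamini-Hochberg method, with Python 3.11.15 and scipy 1.17.1; the code was tested on simulated data. No label says that replicate IPs had their own cultures, so p-values measure the spread between libraries, which may be technical. Sample strain names rise by 1 within a genotype, and 1 strain per genotype is assumed.

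Members and lists were chosen with earlier results of these data known. Genes named with values are the 6 highest and 6 lowest log2 ratios in each IP, the 5 largest differences between the IPs in each direction, every member called differing, all partner pairs and the genes of both compartments; the remaining members are given by their values. Compartments were assigned by hand, since the reference tables used hold no product names; cars-2, first listed as mitochondrial, was set apart as a pseudogene. All 34 IDs matched the Ensembl release 115 annotation, whose build is that of the notes. Exons of 12 members overlap exons of an antisense gene, in none by over 10% of their bases, and without a strand setting such reads cannot be told apart. Protein and mRNA sequences were not used here.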

Additional observations from a re-analysis of the deposited data

Results flagged for a closer look

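Members called in opposite directions by the 2 IPs, with a called difference between them, were fars-1, lars-1 and tars-1. For fars-1 the OMA-1 value exceeded the LIN-41 value by 0.96, with log2 ratios of 0.38 with OMA-1 and -0.58 with LIN-41 in the authors' deposited table. For lars-1 the difference was 1.69, from 0.51 with OMA-1 and -1.17 with LIN-41. For tars-1 it was 1.09, from 0.35 with OMA-1 and -0.74 with LIN-41. Under equal FPKM totals and under quantile normalization all 3 genes had negative ratios in both IPs, and the difference between the IPs was still called.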

How the results depend on the processing

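With equal FPKM totals, 8 members were higher and 21 lower with OMA-1, 2 higher and 25 lower with LIN-41, and 11 differed between the IPs. The cytosolic medians became -1.84 (OMA-1) and -1.81 (LIN-41), with mitochondrial medians of 0.0086 and -0.20, and the medians of the OMA-1 minus LIN-41 difference -0.028 for cytosolic and 0.056 for mitochondrial enzymes. With quantile normalization 13 members were higher and 19 lower with OMA-1, 8 were higher and 21 lower with LIN-41, and 11 differed; the cytosolic medians were -1.26 and -1.45, the mitochondrial medians 0.92 and 0.43, and the mitochondrial median difference 0.12. Called members that changed sign with equal totals had OMA-1 log2 ratios of -0.17 (aars-1), -0.96 (fars-1), -0.042 (fars-2), -0.90 (kars-1), -0.82 (lars-1), -0.61 (nars-1), -0.99 (tars-1) and -0.96 (yars-2). Those that changed sign with LIN-41 had -0.014 (cars-1), -0.14 (fars-2), -0.58 (nars-1), -0.27 (nars-2), -0.46 (sars-1) and -0.26 (yars-1). With quantile normalization the OMA-1 values were -0.66 (fars-1), -1.30 (kars-1), -0.51 (lars-1), -0.77 (nars-1), -1.12 (tars-1) and -0.025 (yars-2), and the LIN-41 values -0.63 (nars-1) and -0.51 (sars-1). By construction a scaling moves zero; which scaling fits these IPs was not tested. Counting the 4 genes of both compartments as mitochondrial gave medians of 0.80 (OMA-1) and, below zero, -0.090 (LIN-41), and counting them as cytosolic moved no median by more than the members' median implied SE. With vars-1 and vars-2 exchanged between the compartments, a setting chosen after seeing the data, the cytosolic OMA-1 median was 0.38 and the mitochondrial LIN-41 median 0.36; the other 4 medians, and all 6 with yars-1 and yars-2 exchanged, moved by less than that SE. A pseudocount of 1 FPKM, a baseMean of at least 100, an adjusted p below 0.01 and, chosen after seeing the data, a median substitute error and other placings of cars-1 and cars-2 kept each count within 1.5 times and each median within that SE. No paired analysis was possible because the table holds no value per library, and for the same reason leaving out single replicates was not run. Depth per library is unknown, so precision rests on the implied SEs, and 15 members in each comparison have only a substitute.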

Other observations

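A further methionyl enzyme gene stood outside the name rule. The table lists it as Y105E8A.20, and the RefSeq table of the same build names it mars-2. The authors' deposited table gave it 10.8 FPKM in the OMA-1 IPs, 14.2 FPKM in the LIN-41 IPs and 12.9 FPKM in the lysates, with a log2 ratio of -0.25 in the OMA-1 comparison and 0.14 in that of LIN-41, neither of them called. A mitochondrial tryptophanyl gene, wars-2, was also on the list of genes to look for, but no member has that name. The other gene looked up outside the rule, prx-10, is not annotated as a synthetase gene in the tables used here. Whether prx-10 is that tryptophanyl gene was not tested, and prx-10 is not counted as a mitochondrial enzyme. The authors' deposited table called it higher in both IPs, with log2 ratios of 2.19 (OMA-1) and 0.97 (LIN-41), and the approximate test called the difference of 1.22.

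Gonad values of another study stand in the same table, as spermatogenic over oogenic log2 ratios. In the authors' deposited table, 5 coding synthetase genes were higher in spermatogenic gonads, beside 27.6% of 14888 genes, and 5 were higher in oogenic gonads, beside 28.2%. All 33 coding values lay between -0.46 and 0.36. The mitochondrial arginyl gene rars-2 had the lowest, -0.46, and yars-1 the highest, 0.36. The pseudogene cars-2 had 1.22. Among the cytosolic genes highest with OMA-1, pars-1 (0.28) and sars-1 (0.11) were called higher in spermatogenic gonads, while cars-1 (0.11) and iars-1 (-0.25) were not called. The gene fars-3 (0.26), called lower with OMA-1, was also called higher in spermatogenic gonads.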
